A study of Mus musculus with 24 samples.

Results

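The genes described here are 5 members of the mouse Ly6 family, Ly6a, Ly6c1, Ly6c2, Ly6e and Ly6i, out of 54232 gene identifiers counted in each of 24 libraries. They were listed because Ly6a encodes Sca1, the surface protein used to sort the cells, and because Ly6i had stood far higher in the knock-in hematopoietic libraries than in the wild type ones. The values that chose the list are therefore those of the genotype contrast in hematopoietic cells, which is given for all 5 genes as a description with no test.

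Bone marrow stromal cells of female C57BL/6 mice aged 6 to 8 weeks were cultured for 7 days and sorted by flow cytometry. Cells with both CD45 and Sca1 on the surface formed the hematopoietic population, and cells with Sca1 but no CD45 the mesenchymal one. The mice were wild type or carried the genotype Sh3bp2KI/KI, a knock-in on both copies of the gene for the adaptor protein SH3BP2, and the titles call the knock-in samples CBM. Each of the 4 combinations held 6 libraries of RNA depleted of ribosomal RNA. All groups thus share the culture, the 7 days and the requirement for Sca1, and the labels give neither the change that the knock-in makes nor whether the replicates of a group came from separate animals. The tests therefore weigh differences against the spread between libraries alone, which may be technical.

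Library totals ranged from 9875390 to 15826711 counts. Sh3bp2 ranged from 162 to 285 CPM in the 12 hematopoietic and from 6.24 to 8.88 CPM in the 12 mesenchymal libraries, with the genotypes overlapping in each, so its level does not check the genotype labels. CPM here are counts scaled to a common library size with TMM factors. Ptprc, which encodes CD45, ranged from 671 to 872 CPM in hematopoietic and from 0.79 to 5.92 CPM in mesenchymal libraries, so the sorted populations carried their labelled marker. Libraries of the hematopoietic gate also held stromal RNA: 18 stromal markers of 10 CPM or more in wild type mesenchymal cells stood in wild type hematopoietic libraries at a median of 10.5% of that level (16 markers and 10.2% in knock-in). Leukocyte markers stood in mesenchymal libraries at a median of 0.438% (wild type) and 0.647% (knock-in) of their hematopoietic level, over 16 markers.

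Ly6 proteins are small, cysteine-rich proteins held on the outer cell surface by a glycosylphosphatidylinositol (GPI) anchor, and many of their genes lie side by side in 1 cluster. Several of them are known targets of interferon signalling and serve as surface labels of leukocyte subsets: Ly6C marks inflammatory monocytes, and Sca1 marks blood stem cells, activated lymphocytes, endothelium and stromal progenitors. Ly6E is a widely expressed member known for its effects on the entry of viruses into cells.

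All 5 genes are protein-coding and lie on chromosome 15 in GRCm38. In order along the chromosome they are Ly6e (ENSMUSG00000022587, 74955051 to 74959905, plus strand), Ly6i (ENSMUSG00000022586, 74979534 to 74983430, minus strand), Ly6a (ENSMUSG00000075602, 74994877 to 74998031, minus), Ly6c1 (ENSMUSG00000079018, 75044018 to 75048830, minus) and Ly6c2 (ENSMUSG00000022584, 75108158 to 75111970, minus). No other annotated gene overlapped any of them on either strand. Their main coding sequences are 396 to 411 bases long. Ly6c1 and Ly6c2 were identical at 387 of 396 coding bases (97.7%), with 188 bases in the longest stretch without a difference, and Ly6a and Ly6i at 350 of 405 (86.4%). Ly6e was the most distant, at 49.9% to 52.6% of aligned positions with the other 4.

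The first 150 coding bases of the 2 closest pairs are shown because they mark how few bases tell the pairs apart in a read from this part. The sequences are from the GENCODE transcripts of GRCm38, 5′ to 3′ from the start codon, with the bases that differ within a pair in capitals, 6 in the Ly6c pair and 7 between Ly6a and Ly6i.
Ly6c1: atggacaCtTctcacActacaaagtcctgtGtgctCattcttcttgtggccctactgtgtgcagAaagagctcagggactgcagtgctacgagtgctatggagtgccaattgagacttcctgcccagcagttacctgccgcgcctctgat
Ly6c2: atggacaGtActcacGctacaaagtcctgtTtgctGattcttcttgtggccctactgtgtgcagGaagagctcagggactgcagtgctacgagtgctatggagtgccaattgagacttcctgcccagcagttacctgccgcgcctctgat
Ly6a: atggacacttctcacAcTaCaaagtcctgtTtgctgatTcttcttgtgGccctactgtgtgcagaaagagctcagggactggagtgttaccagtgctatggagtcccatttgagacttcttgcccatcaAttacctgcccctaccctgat
Ly6i: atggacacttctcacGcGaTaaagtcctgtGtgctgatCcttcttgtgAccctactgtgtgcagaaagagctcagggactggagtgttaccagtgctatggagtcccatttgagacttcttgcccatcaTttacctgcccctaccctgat
Within these 150 bases both pairs run alike for long stretches beyond the first differences, 80 bases at most for Ly6a and Ly6i. Over the whole coding sequences the Ly6c pair differs at 9 bases, and Ly6a and Ly6i at 55, most of them outside the printed part. Over the whole transcripts, 19% of the distinct 75-base windows of Ly6c1 also occurred in another gene's transcripts, mostly those of Ly6c2. The share was 9.5% for Ly6c2, 6.3% for Ly6a, 0.5% for Ly6i and 0% for Ly6e. Of the 83 shared windows of Ly6a, 77 occurred in Ly6c1 and 6 in Ly6i. With 50-base windows it was 32.8% for Ly6c1, 14.5% for Ly6c2, 19% for Ly6a, 4.8% for Ly6i and 0% for Ly6e. A read wholly inside such a window can be split or dropped by the counting, so the levels of Ly6c1, Ly6c2 and Ly6a carry a doubt that those of Ly6e do not. Ly6a was summed with Ly6i further on, and its larger overlap, with Ly6c1, was not examined that way.

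The upstream sequences of the Ly6c pair differed more than the coding ones. RefSeq's table for GRCm38.p6 held promoters of Ly6c1 and Ly6c2 among the 5 genes. The 250 bases before the first listed start of each are printed here because the pair took opposite sides in the comparison of the 2 populations described further on. They lie on the minus strand, at chr15:75048838-75049087 for Ly6c1 and chr15:75111972-75112221 for Ly6c2, and capitals mark bases that differ or have no partner within the aligned part.
Ly6c1: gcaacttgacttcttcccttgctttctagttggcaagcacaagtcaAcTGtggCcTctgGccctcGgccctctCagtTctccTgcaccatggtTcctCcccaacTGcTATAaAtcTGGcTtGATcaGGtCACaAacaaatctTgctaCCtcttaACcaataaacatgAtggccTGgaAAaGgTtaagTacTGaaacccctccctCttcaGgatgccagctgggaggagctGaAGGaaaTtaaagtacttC
Ly6c2: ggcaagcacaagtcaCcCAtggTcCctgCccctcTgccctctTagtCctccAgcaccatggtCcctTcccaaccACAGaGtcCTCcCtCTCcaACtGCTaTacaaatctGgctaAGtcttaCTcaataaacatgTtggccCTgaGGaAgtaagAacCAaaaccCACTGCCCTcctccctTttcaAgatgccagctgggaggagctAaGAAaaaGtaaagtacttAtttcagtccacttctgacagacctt
Of 228 aligned positions 164 (71.9%) were identical. Interferon-related motifs were searched on both strands of the table's windows, 250 bases before to 50 after each start. TTCNNNGAA, the letters of the gamma-activated site, was in 0 of the 4 windows listed for Ly6c1 and Ly6c2 and in 8.3% of all 32851 promoters of the table. The core of the interferon-stimulated response element, GAAA and GAAA with 2 bases of any kind between them, was in 0 of the 4 and in 3.44% of all. No match says only that these letters are not in these windows.

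**Figure D1:**
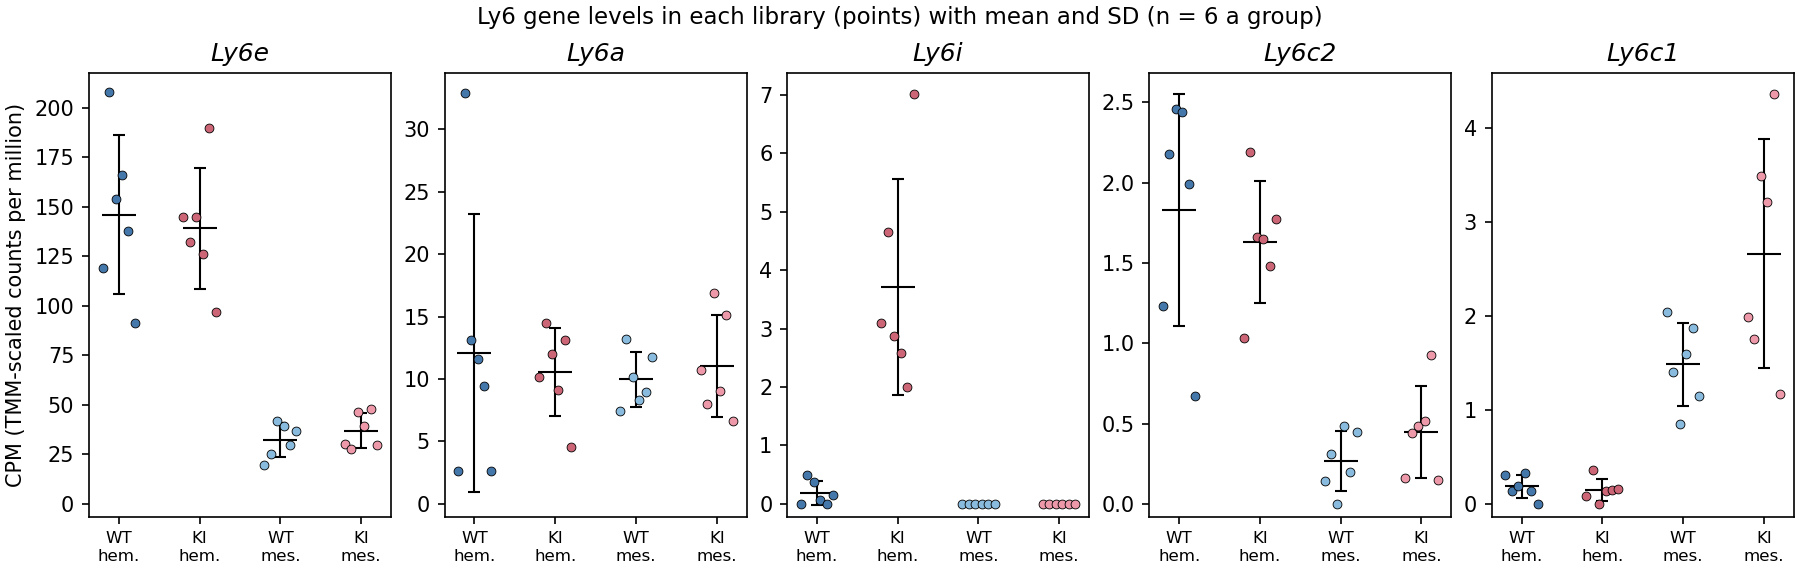
Level of each Ly6 gene in CPM (vertical axes, linear, 1 scale per gene) in the 24 libraries, with the mean and SD of each group (WT wild type, KI knock-in, hem. hematopoietic, mes. mesenchymal, n = 6). Ly6i has points above 0 in hematopoietic libraries alone, Ly6c2 and Ly6e sit higher in hematopoietic and Ly6c1 in mesenchymal libraries, and 1 wild type hematopoietic library has Ly6a at 32.9 CPM.

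Ly6a, the Sca1 gene, was a transcript of middling level in every group although all cells were gated for the protein. In wild type hematopoietic libraries it ranged from 2.61 to 32.9 CPM with a median of 10.5, and in knock-in ones from 4.55 to 14.5 with a median of 11.1. Mesenchymal libraries ranged from 7.41 to 13.2 CPM (median 9.57) in wild type and from 6.63 to 16.9 (median 9.88) in knock-in. The 4 groups overlapped throughout, and the lowest and the highest values both came from wild type hematopoietic libraries. Between 41.5% and 44.3% of the tested genes had a lower group mean than Ly6a.

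No difference of Ly6a between groups was detected. Mesenchymal over hematopoietic, its log2 fold change was -0.22 in wild type (95% interval -1.07 to 0.63, adjusted p = 0.644) and 0.08 in knock-in (-0.76 to 0.93, adjusted p = 0.862), from the quasi-likelihood test of edgeR, adjusted by Benjamini-Hochberg over all tested genes. Knock-in over wild type in mesenchymal cells it was 0.16 (-0.33 to 0.65, adjusted p = 0.746 by edgeR). The wild type interval between populations reaches about a 2-fold difference. Without wild type hematopoietic replicate 2 that difference was 0.31 in place of -0.22. In bulk samples such as these, fewer cells that express a gene and less RNA per cell cannot be told apart.

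Ly6e was higher in hematopoietic cells, where it also had the highest level per length of the 5 genes. It ranged from 91.4 to 208 CPM (median 146) in wild type and from 97.1 to 190 CPM (median 138) in knock-in hematopoietic libraries. In mesenchymal libraries it ranged from 19.8 to 42.0 CPM (median 33.3) and from 27.9 to 47.8 CPM (median 34.9). Every hematopoietic library lay above every mesenchymal one, in both genotypes. The hematopoietic level was 4.54 times the mesenchymal one in wild type (log2 fold change -2.18, edgeR, SE 0.21, adjusted p = 3.22e-09) and 3.77 times in knock-in (-1.91, edgeR, SE 0.21, adjusted p = 2.46e-08). Between genotypes in mesenchymal cells its log2 fold change was 0.21 (95% interval -0.20 to 0.62, adjusted p = 0.562 by edgeR), which was not called.

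Ly6c1 and Ly6c2, which together carry the Ly6C antigen, took opposite sides of the sort. Ly6c2 was the hematopoietic gene of the pair. It ranged from 0.671 to 2.46 CPM (median 2.08) in wild type and from 1.03 to 2.19 CPM (median 1.66) in knock-in hematopoietic libraries. Mesenchymal libraries held 0 to 0.487 CPM in wild type, against 0.146 to 0.927 CPM in knock-in, and neither genotype's populations overlapped. The log2 fold change, mesenchymal over hematopoietic, was -2.75 in wild type (edgeR, SE 0.46, adjusted p = 1.17e-05) and -1.85 in knock-in (edgeR, SE 0.44, adjusted p = 0.000591).

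Ly6c1 was the mesenchymal one. Mesenchymal libraries ranged from 0.856 to 2.04 CPM (median 1.5) in wild type and from 1.17 to 4.37 CPM (median 2.61) in knock-in, while no hematopoietic library exceeded 0.364 CPM. The populations did not overlap in either genotype. The log2 fold change was 2.97 in wild type (edgeR, SE 0.48, adjusted p = 7.71e-06) and 4.06 in knock-in (edgeR, SE 0.48, adjusted p = 7.53e-08). These rest on few reads: the 6 libraries of a group summed to 126 and 220 counts of Ly6c1 in mesenchymal cells and to 14 and 12 in hematopoietic cells. For Ly6c2 the sums were 143 and 129 counts in hematopoietic and 23 and 37 in mesenchymal cells (wild type and knock-in).

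Most tested genes differed between the populations, so these calls are not particular to the family: edgeR called 73.5% of genes in wild type (35.4% higher and 38% lower in mesenchymal cells) and 73% in knock-in (33.9% and 39.1%). In both genotypes the calls among the Ly6 genes other than Ly6i were Ly6e and Ly6c2, lower, and Ly6c1, higher in mesenchymal cells. The filter on low counts bears on both Ly6c genes. Ly6c1 had too few counts for the fit of hematopoietic libraries, and Ly6c2 for that of mesenchymal libraries. Each thus entered the fit of 24 through the population where it was higher. That favours a difference, so their adjusted p-values are weak support beyond the counts themselves. Ly6c2 passed in the fit of 24 libraries, and in the 12 wild type libraries alone it did not. With no filter its wild type log2 fold change was -2.75 (edgeR, SE 0.47, adjusted p = 6.04e-06).

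The sum of the pair behaved otherwise. With the counts of Ly6c1 and Ly6c2 added as 1 gene, the log2 fold change was -0.21 in wild type (edgeR, SE 0.34, adjusted p = 0.588) and 0.80 in knock-in (edgeR, SE 0.33, adjusted p = 0.0331). The sum was thus called higher in mesenchymal cells of the knock-in alone. The interaction of the sum stood at 1.01 (SE 0.47), given without a test.

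The level of each gene in its lower population can be set beside the RNA of the other population. Ly6c1 in hematopoietic libraries stood at 12.5% (wild type) and 5.53% (knock-in) of its mesenchymal mean. Stromal markers stood there at 4.91% to 30.3% in wild type and 2.76% to 20.6% in knock-in, so Ly6c1 lay within their range. Ly6c2 in mesenchymal libraries stood at 14.5% and 27.3% of its hematopoietic mean, and Ly6e at 22.1% and 26.5%. No leukocyte marker exceeded 1.49% in wild type or 2.24% in knock-in mesenchymal libraries, so these levels of Ly6c2 and Ly6e lay above all 16 markers. Ly6c2 there summed to 23 (wild type) and 37 (knock-in) counts, and it shares 259 windows of 75 bases with Ly6c1. The source of the lower level of each of these genes was not tested.

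**Figure D2:**
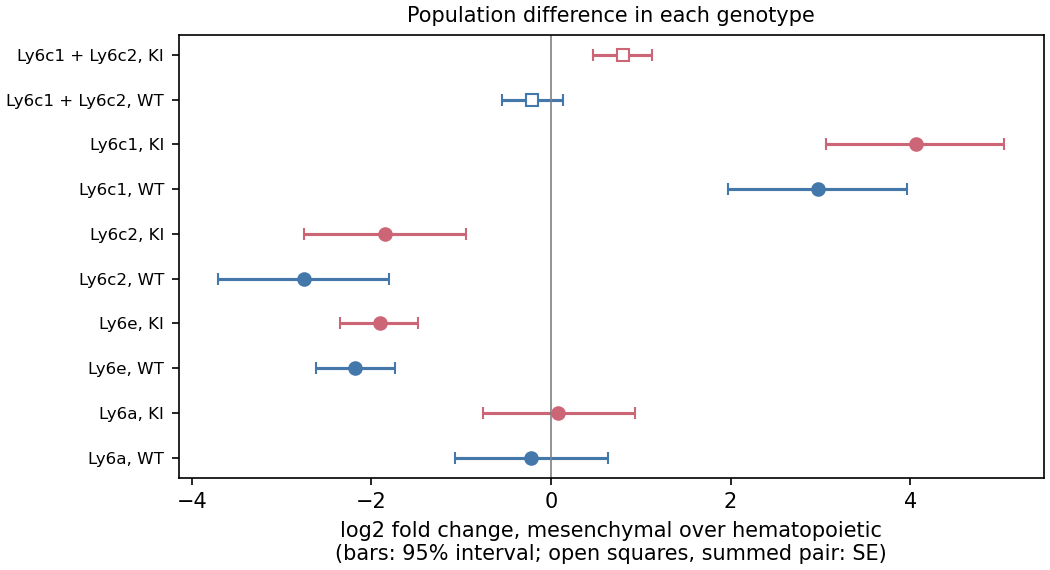
Log2 fold change between populations (horizontal axis, mesenchymal over hematopoietic) for 4 Ly6 genes in wild type (WT, blue) and knock-in (KI, red) cells, with 95% intervals, and for the summed counts of Ly6c1 and Ly6c2 (open squares, bars are SE). Ly6c1 and Ly6c2 lie on opposite sides of 0, at 2.97 and -2.75 in wild type, and their sum lies at -0.21.

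Other cell types known for these antigens were traced by their markers. Ly6C and Sca1 are known on endothelium, and 15 endothelial markers summed to 9.88 to 84.5 CPM in wild type mesenchymal libraries and 19.2 to 142 CPM in knock-in ones. In hematopoietic libraries they summed to 21.3 to 36.5 and 26.8 to 67.7 CPM. No marker of the 15 was at 0 in all libraries of a mesenchymal group. Of 12 tested by edgeR in wild type, mesenchymal cells had 8 higher and 1 lower, where 35.4% of all genes were higher and 38% lower. Among the higher ones were the junction protein gene Esam (2.23 in log2) and the guidance receptor gene Robo4 (2.82). The lower one was the von Willebrand factor gene Vwf (-1.80). Among wild type mesenchymal libraries replicate 1 had both the highest endothelial sum, 84.5 CPM, and the highest Ly6c1, 2.04 CPM, and replicate 6 the lowest sum, 9.88 CPM, with Ly6c1 at 1.15 CPM. Among knock-in ones replicate 1 had the highest sum, 142 CPM, with Ly6c1 at 1.99 CPM, and replicate 4 the lowest, 19.2 CPM, with Ly6c1 at 3.22 CPM. The part of these cells in the Ly6c1 difference was not tested.

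Between genotypes in mesenchymal cells 0 of the 3 Ly6 genes with enough counts were called by edgeR or by DESeq2, and 1 of 3 had an unadjusted p under 0.05. Of all genes tested there, edgeR called 7.27% (3.44% higher and 3.83% lower in the knock-in). That 1 was Ly6c1, with a log2 fold change of 0.85 (edgeR, SE 0.33, unadjusted p = 0.0233, adjusted p = 0.144). Its means were 1.49 ± 0.443 CPM in wild type, against 2.67 ± 1.22 CPM in knock-in (SD, n = 6 each), and the groups overlapped, with 3 knock-in libraries above every wild type one. Without knock-in replicate 6, the lowest library of its group, the log2 fold change was 1.02 and the adjusted p 0.0482 by edgeR. Of 11 endothelial markers tested 0 were called by edgeR, 1 was higher at an unadjusted p under 0.05, and the median was 0.73 against 0 over all genes. Their part in this value was not tested. Ly6c2 had too few counts in mesenchymal cells to be tested there.

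Ly6i, a close relative of Ly6a, was counted in hematopoietic libraries alone. In the knock-in hematopoietic libraries its counts were 36, 64, 33, 39, 27 and 91 in replicates 1 to 6, or 2 to 7.02 CPM. In the wild type hematopoietic libraries they were 0, 7, 4, 1, 0 and 2, or at most 0.491 CPM. All 12 mesenchymal libraries had 0 counts, which allows up to 0.0355 CPM over the wild type and 0.0372 CPM over the knock-in group (3 counts, counting error only). The knock-in and wild type hematopoietic libraries did not overlap, and the summed level was 20.4 times as high in the knock-in. This is the value for which Ly6i was listed, and it supports nothing beyond the description.

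The levels of Ly6i between populations are likewise given as a description. In the 12 wild type libraries alone it did not pass the filter on low counts. It entered the fit of 24 through the knock-in hematopoietic libraries for which it was listed. Its test between populations is therefore void, and the adjusted p appears only where the dependence on the processing is listed. In wild type cells 14 counts stood against 0, which is at least 5.11-fold higher in hematopoietic cells at a floor of 3 counts over the group. In knock-in cells the 290 counts against 0 put Ly6i at least 99.4-fold higher in hematopoietic cells, at the same floor. The wild type populations overlapped at 0, where 2 of the 6 hematopoietic libraries lay.

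The knock-in library with the highest Ly6i, replicate 6 at 7.02 CPM, had the lowest Ly6a of its group at 4.55 CPM. With the counts of both genes added, the log2 fold change of the sum between genotypes in hematopoietic cells was 0.31 (SE 0.47), since Ly6a outweighs Ly6i. Ly6a alone was at -0.11 (SE 0.50), Ly6e at -0.05 (SE 0.19) and Ly6c2 at -0.15 (SE 0.31) in that contrast, against 4.33 (SE 0.59) for Ly6i, where edgeR called 15.9% of all genes (9.01% higher and 6.89% lower in the knock-in). Ly6c1 had too few counts in hematopoietic cells for that fit. The interaction, which is the knock-in effect in mesenchymal minus that in hematopoietic cells, stood at 0.30 (SE 0.58) for Ly6a, 0.27 (SE 0.29) for Ly6e, 0.90 (SE 0.64) for Ly6c2 and 1.09 (SE 0.75) for Ly6c1, also as descriptions. Of all genes 7.28% were called in that interaction (2.92% higher and 4.36% lower).

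Genes of bone-resorbing osteoclasts differed between the same libraries as Ly6i. Of 16 listed osteoclast genes 14 rose and 0 fell in knock-in hematopoietic cells by edgeR, where 9.01% of all genes rose and 6.89% fell. Their median log2 fold change was 2.57 against 0 over all genes. Their summed level was 1030 to 2800 CPM in wild type, against 3380 to 6960 CPM in knock-in hematopoietic libraries, with no member at 0 in either group. Their part in the level of Ly6i was not tested.

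Monocyte genes known to go with high or low Ly6C moved both ways in those libraries. Over all genes 9.01% rose and 6.89% fell there. Of 18 tested genes of Ly6C-high monocytes 6 rose and 2 fell by edgeR, with a median of 0.04. The risers included the lysozyme genes Lyz1 (2.52) and Lyz2 (0.66), and the chemokine receptor Ccr2, which defines these monocytes, fell from 185.713 to 59.77 CPM (log2 fold change -1.62, edgeR, SE 0.29, adjusted p = 0.00305). Of 11 genes of Ly6C-low monocytes 1 rose and 2 fell, among them the lymphoid transcription factor Pou2f2 (-0.97) and the scavenger receptor Cd36 (-0.60). Ly6c2 itself, at -0.15, had overlapping groups.

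Compared per length of exon, the order of the genes differed between the populations. In wild type hematopoietic libraries Ly6e averaged 38.5 ± 10.7 CPM per kb, Ly6a 10.0 ± 9.24, Ly6c2 0.667 ± 0.264, Ly6i 0.156 ± 0.179 and Ly6c1 0.11 ± 0.0727 (SD, n = 6). The last 2 were within each other's spread. In knock-in hematopoietic libraries Ly6i, at 3.21 ± 1.60, took the third place, above Ly6c2 at 0.595 ± 0.137. In wild type mesenchymal libraries Ly6e (8.50 ± 2.29) and Ly6a (8.28 ± 1.81) did not differ beyond their spread, and Ly6c1 (0.886 ± 0.264) stood above Ly6c2 (0.0968 ± 0.0679). The knock-in mesenchymal order was the same, at 9.77, 9.19, 1.59 and 0.163 CPM per kb. The lengths join the exons of all transcripts of a gene. They exceed the main transcript for Ly6c2 (2740 against 822 bases), Ly6e (3784 against 2281), Ly6c1 (1677 against 844) and Ly6a (1205 against 819). For Ly6i both are 1156 bases. The longer lengths lower the values per kb of those 4 genes, and the order by main transcript was not examined.

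**Figure D3:**
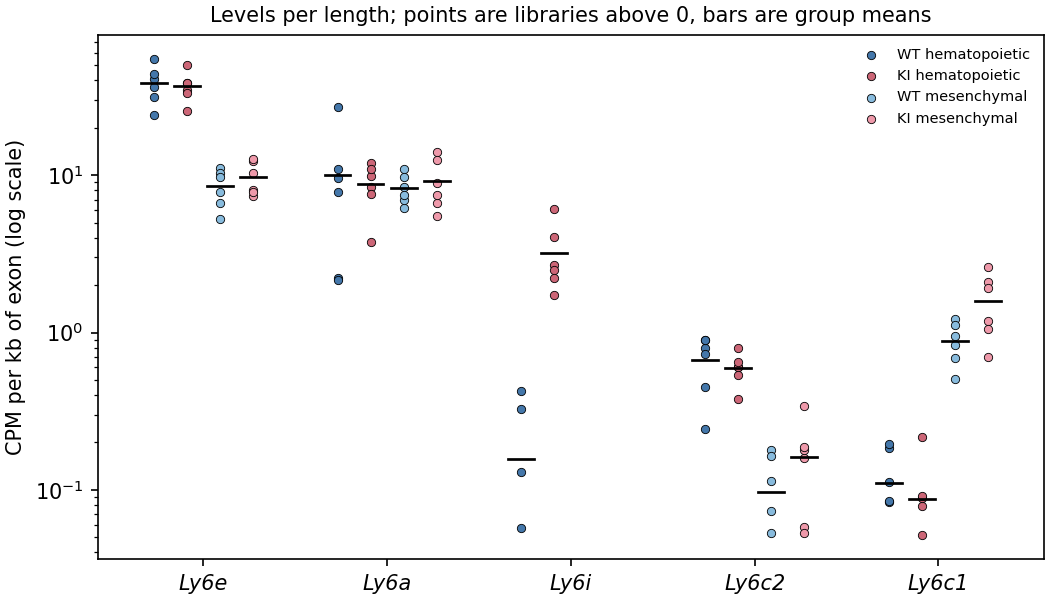
CPM per kb of exon (vertical axis, log scale) of the 5 Ly6 genes in each library above 0 (points), with the mean of all 6 libraries of a group (bars). Ly6e leads in hematopoietic libraries at 38.5 and 36.8, shares the level of Ly6a in mesenchymal ones, and Ly6i reaches 3.21 in knock-in hematopoietic libraries.

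Over the 24 libraries together, with group means removed, Ly6a and Ly6e went with the interferon-response genes from library to library. This relation was sought after Ly6a's spread among the wild type hematopoietic libraries had been seen. For each library the mean log2 level of 38 interferon-response genes, none of them a Ly6 gene, was taken as a deviation from the mean of its group and run, and so was each gene. Over the 24 libraries the deviations of Ly6e correlated with those of the list at Pearson's r = 0.80 (Spearman's rho = 0.81, permutation p = 0.00024 and 0.00016, 100000 shuffles within group and run). For Ly6a r was 0.77 and rho 0.81 (permutation p = 0.00037 and 0.0003). Adjusted over the 4 genes examined, the permutation p-values of r were 0.00074 for both, and those of rho 0.0006. The share of all genes that go with the list this closely was not examined. The shuffles treated same-numbered libraries of different groups as unlinked. Over all genes such libraries correlated at -0.11 to 0.45, so all permutation p-values of this relation may be too small. No version with linked libraries was run.

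The Ly6c pair did not pass that test. Ly6c2 had r = 0.45 (rho = 0.35, adjusted permutation p = 0.11 and 0.21) and Ly6c1 r = 0.21 (rho = 0.09, adjusted permutation p = 0.38 and 0.70), at levels near the counting limit. Ly6i was left out because 14 of 24 libraries had no count. Without the 2 libraries farthest from the median of the list, and with deviations taken anew, r was 0.71 for Ly6e and 0.67 for Ly6a. Within run 1 it was 0.70 and 0.71 (the latter not passing, permutation p = 0.092), and within run 2 0.90 and 0.92. In hematopoietic libraries alone r was 0.96 for Ly6e and 0.84 for Ly6a, and in mesenchymal libraries alone 0.60 for each, which did not pass on 12 libraries (permutation p = 0.065 and 0.069).

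The wild type hematopoietic libraries give an example. Replicates 1 and 6 had the lowest summed interferon list (1290 and 1300 CPM), the lowest Ly6a (2.67 and 2.61 CPM), the lowest Ly6e (119 and 91.4 CPM) and the lowest Ly6c2 (1.23 and 0.671 CPM). Replicates 2 and 4 had the highest list (2120 and 2480 CPM) and the highest Ly6e (208 and 166 CPM). Ly6a was instead highest in replicates 2 and 3 (32.9 and 13.1 CPM), and Ly6c2 in replicates 3 and 4 (2.46 and 2.44 CPM). Among knock-in hematopoietic libraries replicate 6 had the lowest list (931 CPM) and the lowest Ly6a (4.55 CPM). Replicate 2 there had the highest Ly6a (14.5 CPM) with a list of only 998 CPM, in a range up to 1980 CPM. Between genotypes, of 38 tested interferon genes 6 fell and 0 rose in knock-in hematopoietic cells by edgeR. Over all genes 6.89% fell and 9.01% rose there. The median log2 fold change of the list was -0.52 against 0 over all genes, while Ly6a stood at -0.11 and Ly6e at -0.05. The interferon genes called included the ubiquitin ligase gene Herc6 (-0.50) and the antiviral GTPase gene Mx1 (-1.44). In wild type mesenchymal cells 31 of the 38 were lower and 2 higher than in hematopoietic cells, where 38% of all genes were lower and 35.4% higher. The median of the list was -1.84, beside -2.18 for Ly6e and -0.22 for Ly6a.

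**Figure D4:**
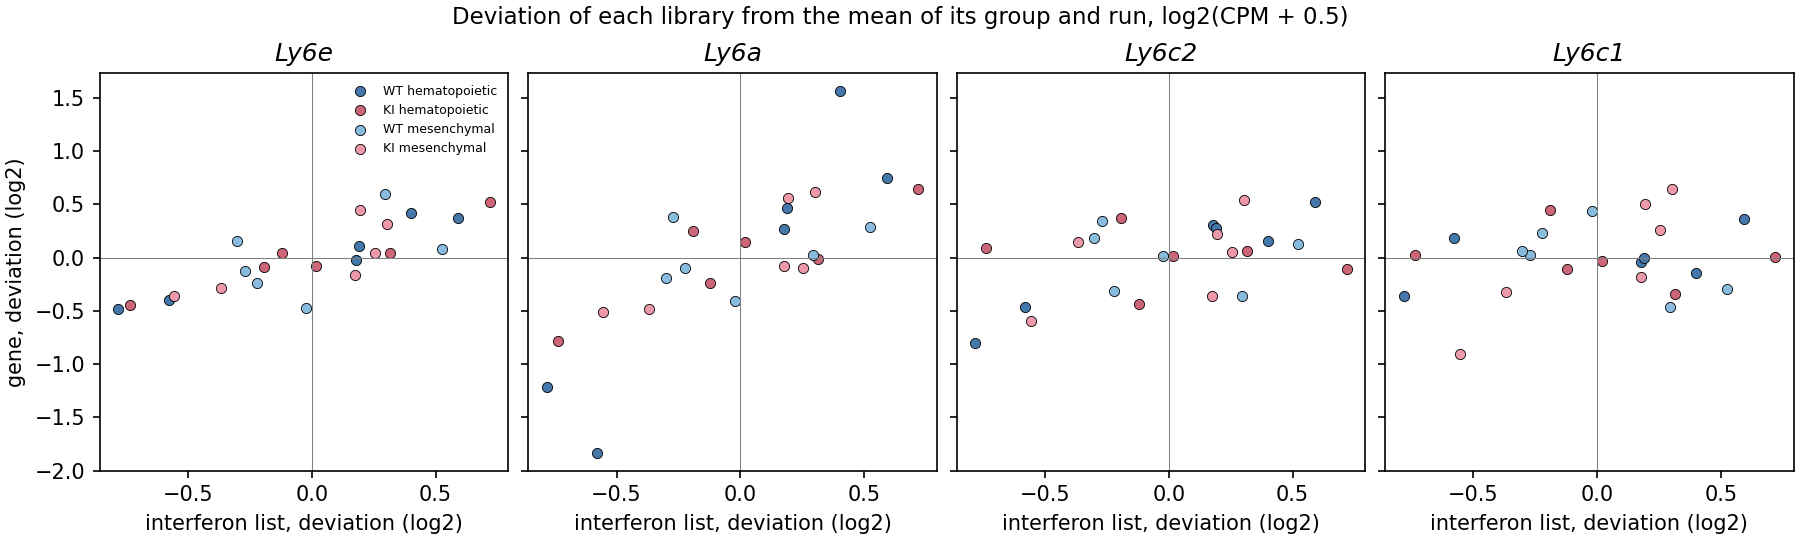
Deviation of each gene (vertical axes, log2) against the deviation of the mean of 38 interferon-response genes (horizontal axes, log2), each from the mean of the library's group and run, for 24 libraries coloured by group. Ly6e (r = 0.80) and Ly6a (r = 0.77) lie along a rising line, and Ly6c2 (r = 0.45) and Ly6c1 (r = 0.21) scatter more widely.

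Among 12732 annotated genes of 1 CPM or more in some group, those most like each Ly6 gene were picked by Pearson's r of log2(CPM + 0.5). Over all 24 libraries Ly6e was closest to Slc29a3 (0.972), Mtmr6 and Tnfrsf21 (0.971 each), and Ly6c1 to Arl14ep (0.942), Tmtc4 (0.938) and Myl4 (0.937). Ly6c2 was closest to Arl8a (0.93), Prokr1 (0.926) and Mak (0.919), and Ly6a to Arrdc3 (0.731). Ly6i was closest to Mturn (0.98), the growth factor receptor gene Met (0.968) and the myeloid receptor gene Tarm1 (0.967). Met averaged 124.41 CPM in knock-in and 12.54 CPM in wild type hematopoietic libraries. These likenesses follow the group means that the libraries share.

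With group and run means removed, the closest genes were others. Ly6e was closest to Unc45a (0.893), Trim25 (0.883) and Ttc37 (0.871), and Ly6a to Spint1 (0.848), Med7 (0.839) and Parp12 (0.833). Trim25, a ubiquitin ligase of antiviral signalling, and Parp12, an antiviral ADP-ribosyltransferase, are known interferon-induced genes and were not in the list of 38. They were picked from the same deviations as the interferon relation, so they are no separate support for it. The share of interferon-induced genes among all those compared was not examined. Ly6c1 was closest to Cyth4 (0.829), Nckap1l (0.805) and Cwc25 (0.787), Ly6c2 to Rab6a (0.798), Castor1 (0.771) and Acp5 (0.749), and Ly6i to Igkv8-30 (0.899), Lmo4 (0.832) and Apol7c (0.828). At the low counts of the last 3 Ly6 genes such values are descriptions only. Among the Ly6 genes themselves the deviations of Ly6a and Ly6e correlated at 0.75, those of Ly6a and Ly6c2 at 0.65, and those of Ly6a and Ly6i at 0.11.

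Few other genes of the wider Ly6 and uPAR family were expressed. Of 39 further family members found in the count tables, 7 had enough counts for the comparison of populations. By edgeR, 5 of them stood higher and 2 lower in the mesenchymal cells of wild type mice, where 73.5% of all genes were called (35.4% higher and 38% lower). The higher ones were Lynx1, a modulator of acetylcholine receptors from the same cluster (2.84), the complement inhibitor genes Cd59a (0.99) and Cd59b (1.18), Lypd6 (2.95) and Plaur (0.32), the urokinase receptor. The lower ones were the neutrophil antigen gene Cd177 (-4.72) and the gene annotated as 2010109I03Rik, which RefSeq lists as Ly6m (-4.48). In knock-in cells 2 were higher (Lynx1 at 2.60 and Plaur at 0.45) and the same 2 lower, where 73% of all genes were called.

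Between genotypes 1 of 6 tested family members was called in hematopoietic cells and 1 of 4 in mesenchymal cells, where 15.9% and 7.27% of all genes were called. In hematopoietic cells this was Cd59a, at 7.17 CPM in wild type, against 13.367 CPM in knock-in (log2 fold change 0.91, edgeR, SE 0.26, adjusted p = 0.0342). Plaur stood at 0.36 there (adjusted p = 0.0552 by edgeR). In mesenchymal cells it was Plaur, at 39.995 CPM in wild type, against 55.66 CPM in knock-in (0.48, edgeR, SE 0.13, adjusted p = 0.0338). The wild type mesenchymal mean of Cd59a was 14.155 CPM, and the part of stromal RNA in its hematopoietic level was not tested.

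Ly6g, the neutrophil member of the cluster, showed up to 2 counts in a library. The 13 neutrophil markers summed to 105 to 193 CPM in wild type, against 100 to 158 CPM in knock-in hematopoietic libraries. By edgeR 0 of 9 tested were called between these genotypes, where 15.9% of all genes were called. At an unadjusted p under 0.05 there were 0. Their median log2 fold change was nevertheless -0.63, against 0 over all genes. The machinery that builds the GPI anchor showed no common direction with the knock-in. Of 26 tested genes 1 rose, Pigq (0.37), and 2 fell, Pgap1 (-0.66) and Pigv (-0.55), in hematopoietic cells by edgeR, with a median of 0. Over all genes 9.01% rose and 6.89% fell there. In mesenchymal cells 0 of 25 were called by edgeR, with 1 higher and 1 lower at an unadjusted p under 0.05. Over all genes 7.27% were called there.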

How the data were processed

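RNA was measured in 24 libraries. Stranded libraries of RNA depleted of ribosomal RNA were, per the labels' protocols, sequenced from both ends. The deposited files give 1 raw count per gene and library, and the submitters' processing notes name HTSeq 0.9.1, DESeq2 1.20.0 and GRCm38. For the aligner, the strand setting and reads with several matches, nothing was given in the sources used here.

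Gene symbols, coordinates and transcripts came from GENCODE M21, which matched 54165 of 54232 identifiers. Genes were filtered by edgeR 4.0.16 (filterByExpr with at least 10 counts, and 15 in total), normalised with TMM factors and tested with its quasi-likelihood test in R 4.3.3, with a threshold of 0.05 after Benjamini-Hochberg adjustment. Genotype was tested in the 12 libraries of a population, populations and the interaction in 1 fit of 24. A prefix of the deposited file names was read as 2 runs, which no label states, and was a term in every fit. Replicates of a group differed by more than counting noise (chi-square per degree of freedom 6.73 or more), so none was merged. The scripts were tested on simulated data. The members, lists and tests were chosen with earlier results of these data known. Named genes were the 5 members, Sh3bp2 and Ptprc, all called genes of the wider family, up to 4 called genes per list and direction, and the 3 genes most like each member. Of these a part is given, and 1 gene like Ly6a is not reported here. Met's levels and the libraries singled out in the text were picked after their values were seen. Alternatives were DESeq2 1.42.0, RLE scaling, no filter, no run term, a replicate block, each run alone, other sets of libraries and each library left out. In another, Ly6c1 was summed with Ly6c2 and Ly6a with Ly6i.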

Additional observations from a re-analysis of the deposited data

Results flagged for a closer look

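Ly6a in wild type hematopoietic replicate 2 stood at 32.9 CPM, while the other 5 libraries of its group lay between 2.61 and 13.1 CPM. The gap to the nearest library was 0.652 of the whole range of the group, above Dixon's critical value for 6 samples. It was 1 of 18 sets of 6 values examined, and chance flags about 1 in 20. The same library held the highest Ly6e (208 CPM) and the highest Ly6i (0.491 CPM) of its group. Ly6c2, at 2.18 CPM, was the third highest there. Without this library the genotype difference of Ly6a in hematopoietic cells was 0.39 in log2, and the relation of Ly6a to the interferon genes had r = 0.80.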

How the results depend on the processing

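Over the alternatives other than left-out libraries, 197 of 213 values and counts were rated as unchanged. A tested value had to keep its side of the threshold, and its direction if either fit called it. Values given as descriptions had to stay within the spread. Counts of called genes had to stay within a set ratio, wide enough that 3315 with the replicate block against 2231 in hematopoietic cells was rated as unchanged. The exceptions are as follows. With Ly6c1 and Ly6c2 summed, the wild type population difference of Ly6c1 turned to -0.21 and that of Ly6c2 was no longer called at -0.21, and the knock-in difference of Ly6c2 turned to 0.80; the sum adds opposite differences. With Ly6a and Ly6i summed, the genotype difference of Ly6i in hematopoietic cells was 0.31, and it was 3.52 in run 1 and 5.61 in run 2. The adjusted p of Ly6i between wild type populations is void and supports nothing, because the gene passed the filter through the knock-in libraries for which it was listed. Only as a record of the processing, it was 0.00967 by edgeR, 0.585 with the sum and 0.174 in run 2. The interaction of Ly6c2 was 1.46 in run 1. The interferon relation of Ly6a did not pass in run 1 (r = 0.71, permutation p = 0.092), nor did those of Ly6a and Ly6e in mesenchymal libraries (r = 0.60 each). These subsets of the relation were chosen after seeing the data. The cause of these shifts was not tested beyond the smaller number of libraries.

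With each library left out, Ly6c1 between genotypes in mesenchymal cells ranged from 0.65 to 1.02, called without knock-in replicate 6. Ly6i between genotypes in hematopoietic cells ranged from 3.99 to 4.94, the highest without wild type replicate 2, and the interaction of Ly6c1 from 0.81 to 1.58. Genes called in mesenchymal cells numbered 1008, 1664 by DESeq2, 646 without knock-in replicate 1, and 391 and 76 in the runs alone. The other counts in runs 1 and 2 were 672 and 218 against 2231 in hematopoietic cells and 180 and 138 against 1121 for the interaction. With the replicate block, Ly6c1 stood at 0.78 in mesenchymal cells (adjusted p = 0.14 by edgeR), Ly6a at 0.12 and Ly6e at 0.22, and no call of a Ly6 gene changed. Same-numbered libraries correlated at -0.11 to 0.45, 14 of 24 pairs over 0.1, and 10 of 24 libraries best with their own number. Between the hematopoietic genotypes these values were 0.09 to 0.45. A pairing by number is thus not excluded, though no label states one. The main fits and the shuffles of the interferon relation left it out. With the block, genes called rose from 1008 to 1258 in mesenchymal and from 2231 to 3315 in hematopoietic cells. Ly6a between genotypes in hematopoietic cells then stood at 0.15 (SE 0.34). Depth limits Ly6c1, Ly6c2 and Ly6i most.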
